A study of Mus musculus with 8 samples.

Results

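The genes described here were 10 transcription factors of the AP-1 family, picked by name from a table of 53697 genes. Fos, Fosb, Fosl1 and Fosl2 are the Fos proteins, Jun, Junb and Jund the Jun proteins, and Atf3, Batf3 and Maff belong to neighbouring branches of the same structural class. RNA was measured in mammary tumor cells of 4 MMTV-PyMT mice, in which the mouse mammary tumor virus promoter drives the polyoma middle T oncogene in mammary epithelium, on a C57BL/6 background. Mice 1 and 2 also carried Dll1GFP, a GFP-IRES-Cre-ERT2 cassette knocked into the gene of the Notch ligand Dll1 (PyMT-Dll1GFP), while mice 3 and 4 carried a BAC-based Dll1 mCherry transgene (PyMT-Dll1mCh). Tumors were digested with collagenase and hyaluronidase, cells bearing CD45, CD31 or Ter119 were sorted out, and the rest were split into reporter-positive (Dll1+) and reporter-negative (Dll1-) cells, which gave 1 library of each kind per mouse and 8 libraries in all. The age of the mice and the number of tumors per mouse are not given in the sources used here. The 2 libraries of a mouse share its tumors, and each reporter rests on 2 mice.

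AP-1 factors bind DNA as dimers through a basic region and a leucine zipper, hence the name bZIP. Jun proteins can pair with themselves or with a Fos, Atf or Maf partner, Fos proteins need a partner, and which pair forms decides which DNA site is bound. Many members are immediate-early genes, transcribed from pre-existing regulators within minutes of growth factor, cytokine or stress signals, and in mammary epithelium they are known for roles in proliferation, invasion and the stress response.

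Promoter sequence of 9 of the 10 genes was found in RefSeq (GRCm38.p6), for 11 start sites counting 3 of Maff. The window ran from 250 bases before to 50 bases after each start. Of these windows, 4 stretches of 120 bases that end just before the start are shown. They were picked as examples that hold letters matching motifs known for AP-1 and CREB-type factors. Capitals mark the matched letters, and all run 5′ to 3′ on the strand of the gene.
Fos, chr12:85473770-85473889, plus strand: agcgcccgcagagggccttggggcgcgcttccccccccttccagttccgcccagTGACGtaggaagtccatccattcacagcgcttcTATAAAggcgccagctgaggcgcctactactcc
Jun, chr4:95052223-95052342, minus strand: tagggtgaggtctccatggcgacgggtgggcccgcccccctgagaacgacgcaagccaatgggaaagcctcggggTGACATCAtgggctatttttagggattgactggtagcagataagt
Atf3, chr1:191183334-191183453, minus strand: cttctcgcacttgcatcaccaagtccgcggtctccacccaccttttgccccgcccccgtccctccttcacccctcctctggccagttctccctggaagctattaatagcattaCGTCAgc
Maff, second start, chr15:79347400-79347519, plus strand: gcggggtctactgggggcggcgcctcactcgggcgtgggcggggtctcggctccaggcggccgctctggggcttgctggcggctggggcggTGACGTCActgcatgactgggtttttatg

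In Fos the CRE half-site TGACG lay at -66 to -62 and the TATA element TATAAA at -33 to -28 from the start. The Jun stretch held the AP-1-type element TGACATCA at -45 to -38, which the third start of Maff also carried. Atf3 carried the half-site on the opposite strand at -7 to -3, read there as CGTCA. The second Maff start held the full cAMP response element TGACGTCA at -29 to -22, which contains the half-site on both strands. Searched on both strands, TGACG was present in 6 of the 11 windows (Fos, Fosb, Junb, Atf3 and the second and the third of Maff), against 20.8% of 32851 mouse promoters of the same length. TGACATCA was present in 2 windows against 3.62%, TGACGTCA in 1 against 1.79%, and TATAAA in 2 (Fos and Junb) against 13.6%. The Junb match lay at 1 to 6, from the RefSeq start base on. The annotated Junb gene starts at 84978718, downstream of this match. Against the annotation the match therefore lies before the start, as in Fos. The AP-1 site TGACTCA and the CArG box, the motif of serum response factor, were present in 0 of the 11 windows, against 5.2% and 1.63%. Sequence farther upstream was not searched. The absence of these motifs therefore holds for the windows only, and does not show that Fos or another member lacks them. The Jund window (chr8:70697489-70697788) lay wholly before the gene span given by the annotation. Those of Fosl2, Atf3 and Batf3 and the second and the third of Maff lay inside the spans of their genes. This is because the RefSeq starts differ from the outer ends of the annotated genes. These are matches of letters and no binding was measured.

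Coordinates are those of GRCm38. Fos spans chr12:85473890-85477273 on the plus strand, Jun chr4:95049034-95052222 on the minus strand, and Fosb chr7:19302696-19310051 on the minus strand. Junb (chr8:84974484-84978718, minus) and Jund (chr8:70698949-70700616, plus) share a chromosome, as do Atf3 (chr1:191170296-191218039, minus) and Batf3 (chr1:191097847-191108945, plus). Fosl1 is at chr19:5447547-5455946, Fosl2 at chr5:32135801-32157842 and Maff at chr15:79346621-79359076, all on the plus strand. Exons of 4 members overlap those of a gene on the other strand. Fosl1 shares 1163 bp with Ccdc85b, Jund 877 bp with the antisense RNA Gm11175, Jun 232 bp with the antisense RNA Junos and Junb 173 bp with Prdx2. The library kit kept strand, but the strand setting of the counting is not given in the sources used here, so these 4 values carry that uncertainty. Between Dll1+ and Dll1- cells none of the partner genes passed the test, with log2 fold changes of 0.52 for Junos (adjusted p = 0.0702), 0.24 for Gm11175 (0.599), 0.18 for Ccdc85b (0.701) and -0.31 for Prdx2 (0.0675).

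The libraries held 27301396 to 123907626 counts, and values are given as CPM, counts scaled to the TMM-normalized library total. At these depths 3 counts amount to 0.0240 to 0.105 CPM, which covers counting error only. Dll1 itself was at 7.61 to 50.3 CPM in the Dll1- and 87.5 to 250.2 CPM in the Dll1+ libraries and was higher in the Dll1+ library of each mouse. Epcam and Krt8, which mark the epithelium, were at 899 to 1240 CPM and 1898 to 3633 CPM over the 8 libraries. Ptprc, the gene of the CD45 antigen, was at 2.88 to 4.39 CPM in PyMT-Dll1GFP and 5.32 to 12.7 CPM in PyMT-Dll1mCh libraries. Col1a1, a fibroblast collagen whose cells the sort did not target, was at 362 to 417 CPM in PyMT-Dll1GFP, 2592 and 6581 CPM in PyMT-Dll1mCh Dll1-, and 1158 and 1215 CPM in PyMT-Dll1mCh Dll1+ libraries.

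All 10 members passed the filter on low counts. Their levels spanned several orders of magnitude. Between genes, levels were compared as CPM per kb of exon. Fos, the founding Fos protein, stood highest at 2303 ± 664 CPM per kb (SD, n = 8 libraries from 4 mice), and its lowest library, at 1317, lay above the highest library of any other member. Jun at 694 ± 193, Junb at 569 ± 165, Atf3 at 568 ± 204, Jund at 528 ± 150 and Fosb at 372 ± 149 CPM per kb came next, with ranges that overlapped from each gene to the next. Maff followed at 35.1 ± 8.84 and Fosl2 at 29.4 ± 9.47, again with overlapping ranges, then Fosl1 at 6.90 ± 3.94 and Batf3 at 0.462 ± 0.244 CPM per kb. The order of the 5 genes after Fos depended on the gene length used. With the longest transcript in place of the union of exons, Junb was at 724, Jun at 694, Atf3 at 617, Fosb at 614 and Jund at 528 CPM per kb. Fosb has 6243 bp of exons in 7 transcripts but a longest transcript of 3782 bp, and a gene total does not separate its splice forms.

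Fos was among the most abundant transcripts of these cells. Ranked by CPM per kb, its place in a library ran from 6 to 43, that of Jun from 36 to 157 and that of Fosb from 91 to 372. By count, Fos held 0.312% to 0.775% of a library. At the other end, Batf3, a factor known from dendritic cell development, was counted 12 to 146 times per library, and its values are correspondingly coarse.

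**Figure D1:**
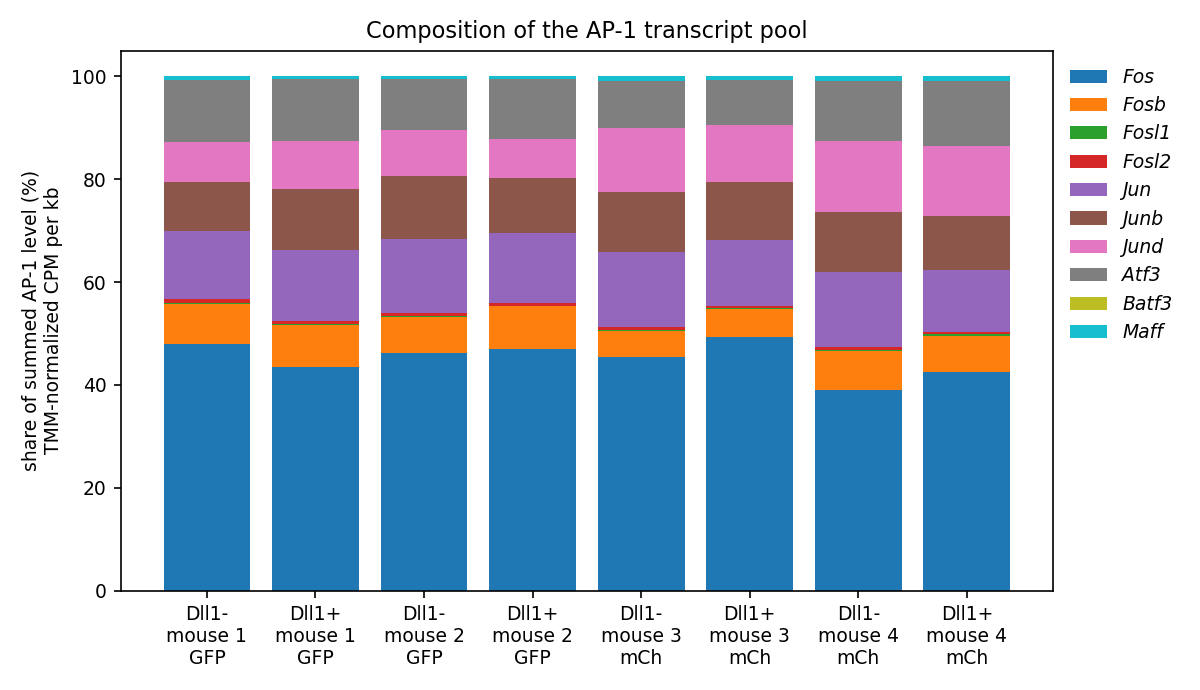
Share of each AP-1 gene in the summed AP-1 level of each library, in percent, from TMM-normalized CPM per kb of exon. Fos makes up 39.1% to 49.4% of every bar, and Fosl1, Fosl2, Maff and Batf3 are thin slivers.

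Within the summed level of the 10 genes, Fos held 45.1% ± 3.32 (SD, n = 8), Jun 13.6% ± 0.94, Junb 11.2% ± 0.84, Atf3 10.9% ± 1.51, Jund 10.6% ± 2.51 and Fosb 7.08% ± 1.17. From the Dll1- to the Dll1+ library the Fos share went from 48.0% to 43.5% in mouse 1 and up in the others, from 46.2% to 47.0% (mouse 2), from 45.3% to 49.4% (mouse 3) and from 39.1% to 42.5% (mouse 4). Jund, the Jun protein known for steady expression in resting cells, took 7.68% to 9.31% in PyMT-Dll1GFP and 11.2% to 13.8% in PyMT-Dll1mCh libraries. A share also depends on the levels of the other members. In CPM, Jund overlapped between the reporters, at 535 to 1078 in PyMT-Dll1GFP and 606 to 1304 in PyMT-Dll1mCh libraries. The ratio of the summed Fos proteins to the summed Jun proteins ran from 1.18 to 1.86. The whole AP-1 sum ran from 2905 CPM per kb in Dll1- cells of mouse 3 to 7079 CPM per kb in Dll1+ cells of mouse 2.

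Dll1+ cells were compared with Dll1- cells within each mouse, the question being which genes mark the ligand-expressing tumor cells. Of the 10 members, 5 were higher in Dll1+ cells at an adjusted p under 0.05 (Fos, Fosb, Jund, Atf3 and Maff) and 0 were lower, where 6.98% of the 18322 tested genes were called higher, 7.04% lower and 14.0% in either direction. The median log2 fold change was 0.56 over the members and -0.00068 over all tested genes. The test was edgeR's quasi-likelihood test with the mouse as a block and Benjamini-Hochberg adjustment over all tested genes. Maff alone passed with each mouse left out in turn. Without mouse 1 or without mouse 3 the count was 1 (Maff), without mouse 2 it was 3 (Fosl1, Atf3 and Maff) and without mouse 4 it was 5 (Fos, Fosb, Jun, Atf3 and Maff). Without the mouse as a block, Fos alone passed. The share of all tested genes called under these settings is not given here.

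**Figure D2:**
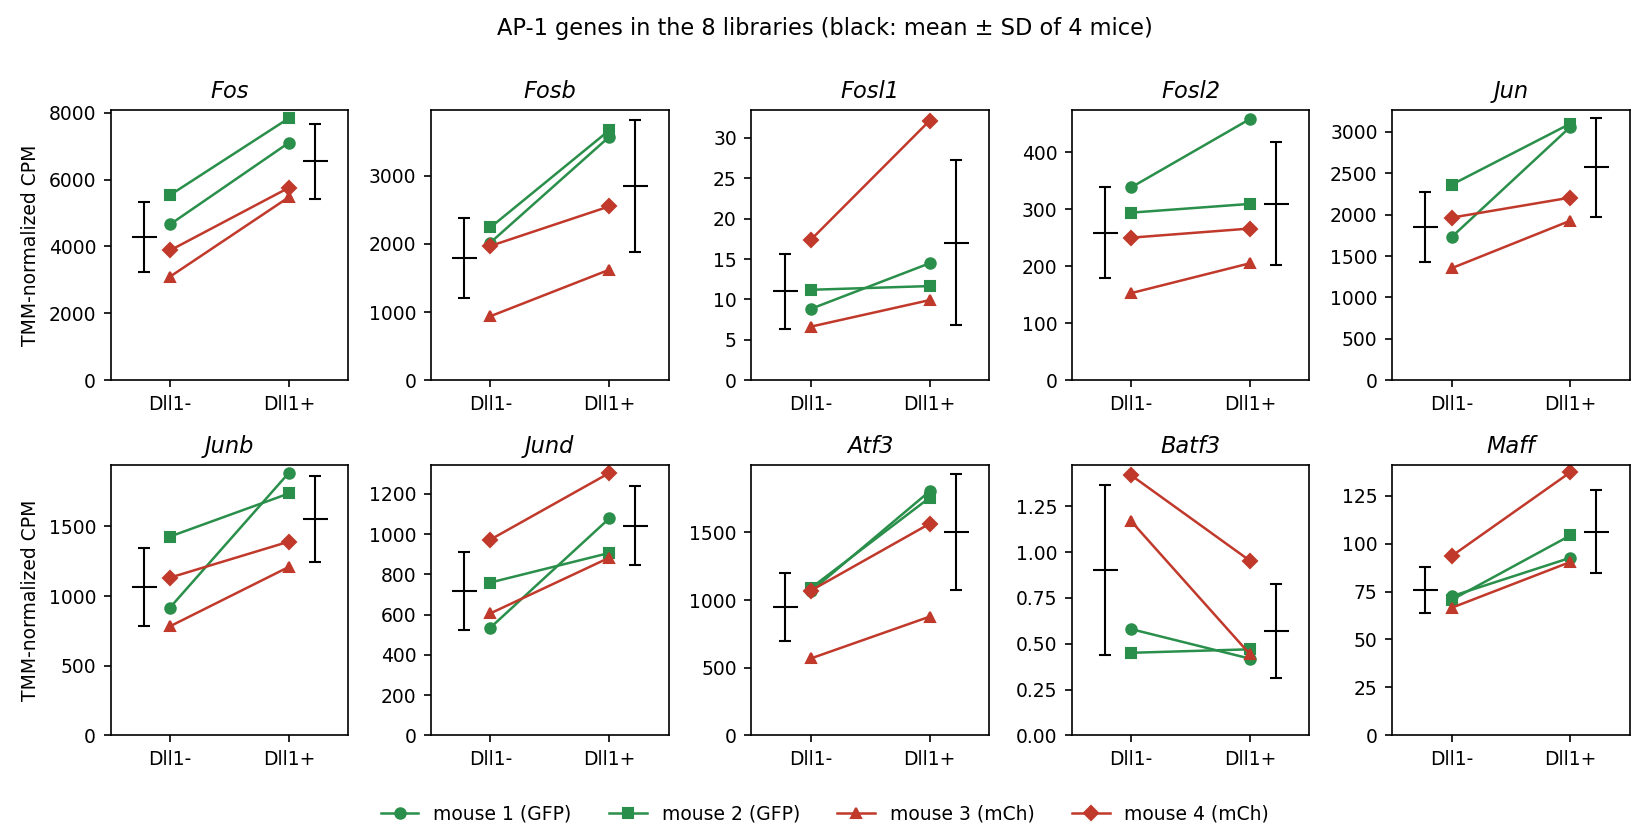
TMM-normalized CPM of the 10 AP-1 genes in Dll1- and Dll1+ cells, 1 line per mouse (green PyMT-Dll1GFP, red PyMT-Dll1mCh), with the mean ± SD of 4 mice in black. Lines rise in each of 4 mice for every gene but Batf3, and the mice differ in level so that the Dll1- and Dll1+ values overlap for all 10 genes.

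Fos stood at 4659 and 5536 CPM in Dll1- cells of mice 1 and 2 and at 7098 and 7831 CPM in their Dll1+ cells. In mice 3 and 4 it was at 3099 and 3883 CPM in Dll1- and 5472 and 5755 CPM in Dll1+ cells. Every mouse had more Fos in Dll1+ cells, although Dll1- cells of mouse 2 were slightly above Dll1+ cells of mouse 3. Over 4 mice this made a log2 fold change of 0.62 ± 0.10 (SE, 95% interval 0.38 to 0.86, adjusted p = 0.0159).

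Fosb, a close relative of Fos that is likewise induced by signals, was at 2018 and 2241 CPM in Dll1- and 3568 and 3662 CPM in Dll1+ cells of mice 1 and 2. The values of mice 3 and 4 were 940 and 1969 CPM in Dll1- and 1620 and 2548 CPM in Dll1+ cells. The rise was 0.67 ± 0.11 on the log2 scale (adjusted p = 0.0160) and was seen in 4 of 4 mice, with mouse 3 low in both of its libraries. Fosl1 and Fosl2 code for the Fos-related antigens, which lack the strong activation domain of Fos. Fosl2 was at 338 and 294 CPM (mice 1 and 2) and 153 and 250 CPM (mice 3 and 4) in Dll1- cells, against 458, 309, 205 and 266 CPM in Dll1+ cells of the same mice. Its difference of 0.26 ± 0.09 did not pass (adjusted p = 0.114). Fosl1 was at 8.84, 11.2, 6.64 and 17.4 CPM in Dll1- and 14.5, 11.7, 9.92 and 32.1 CPM in Dll1+ cells of mice 1 to 4, so that mouse 4 held the highest value of each group. The difference was 0.56 ± 0.15 (adjusted p = 0.0546).

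Among the Jun proteins, Jund passed the test and Jun and Junb lay just outside it. Jund was at 535 and 760 CPM in Dll1- and 1078 and 906 CPM in Dll1+ cells of mice 1 and 2, and at 606 and 973 CPM in Dll1- and 883 and 1304 CPM in Dll1+ cells of mice 3 and 4. The log2 fold change was 0.56 ± 0.13 (adjusted p = 0.0457), and this call was lost with any 1 mouse left out (adjusted p = 0.0698 to 0.171). Jun, the main partner of Fos, was at 1728, 2360, 1353 and 1963 CPM in Dll1- and 3059, 3097, 1927 and 2205 CPM in Dll1+ cells of mice 1 to 4. Junb was at 917, 1428, 783 and 1132 CPM in Dll1- and 1885, 1737, 1209 and 1391 CPM in Dll1+ cells. Each of the 4 mice had more of both in Dll1+ cells, with differences of 0.47 ± 0.12 for Jun (adjusted p = 0.0553) and 0.56 ± 0.15 for Junb (0.0545). Both passed with DESeq2's Wald test (adjusted p = 0.00122 and 0.00136).

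Atf3, a stress-induced factor that can pair with Jun, had the lowest p of the 10 members. It was at 1064 and 1089 CPM in Dll1- and 1805 and 1757 CPM in Dll1+ cells of mice 1 and 2, and at 568 and 1070 CPM in Dll1- and 877 and 1565 CPM in Dll1+ cells of mice 3 and 4. Dll1- cells of mice 1, 2 and 4 were nearly level and mouse 3 stood below them. The log2 fold change was 0.66 ± 0.08 (adjusted p = 0.00879), with a 95% interval of 0.47 to 0.85.

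Maff, a small Maf protein that lacks an activation domain, had the smallest standard error. Its levels were 72.5, 70.6, 66.5 and 93.5 CPM in Dll1- and 92.6, 104.3, 90.4 and 137 CPM in Dll1+ cells of mice 1 to 4. This was a rise of 0.48 ± 0.06 on the log2 scale (adjusted p = 0.00914), and the differences of the single mice lay between 0.35 and 0.56. Batf3 was the member that did not go up. It was at 0.580, 0.451, 1.17 and 1.42 CPM in Dll1- and 0.418, 0.470, 0.443 and 0.953 CPM in Dll1+ cells, higher in 1 of 4 mice. The log2 difference of -0.65 ± 0.30 did not pass (adjusted p = 0.196).

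Counting mice, 9 of the 10 members had more RNA in Dll1+ cells of each of the 4, as did 21.4% of all tested genes, while 19.9% of tested genes had less in each. The Dll1+ and Dll1- ranges overlapped for all 10 members, where 2.74% of tested genes had all Dll1+ libraries above all Dll1- libraries and 3.33% the reverse. The difference varied more between mice for the Jun proteins than for Atf3 and Maff. For mice 1 to 4, Junb differed by 1.04, 0.28, 0.63 and 0.30 on the log2 scale, Jund by 1.01, 0.26, 0.54 and 0.42, and Atf3 by 0.76, 0.69, 0.63 and 0.55. Mouse 1 thus had the largest difference in Junb, Jund and Atf3, and the median over the 10 members was 0.74 there, 0.34 for mouse 2, 0.56 for mouse 3 and 0.40 for mouse 4. After each mouse's mean was taken out, log2 levels of Junb and Jund correlated over the 8 libraries with r = 0.99, those of Fos and Atf3 with r = 0.97 and those of Fosl2 and Maff with r = 0.72, while Batf3 had an r between -0.86 and -0.70 with the other members. These 8 points are 4 differences that share mice and libraries, so the coefficients are a description. Any pair of genes that both rise in each of the 4 mice has an r above 0 by this measure. The coefficients therefore in part restate the direction of the Dll1 difference.

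By the same measure, the genes most like Fos among those tested included Btg2, Tmc7, Zfp983 and Gm4117, with r from 0.9993 to 0.9997. Those most like Atf3 were Rap1b, Cd14, Creb3l4, Gm45848 and BC064078, with r from 0.9993 to 0.9998. Btg2 is itself an immediate-early gene and rose by 0.54 (adjusted p = 0.0171). Cd14, a co-receptor for bacterial lipopolysaccharide and here also an immune marker, rose by 0.70 (adjusted p = 0.00585).

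**Figure D3:**
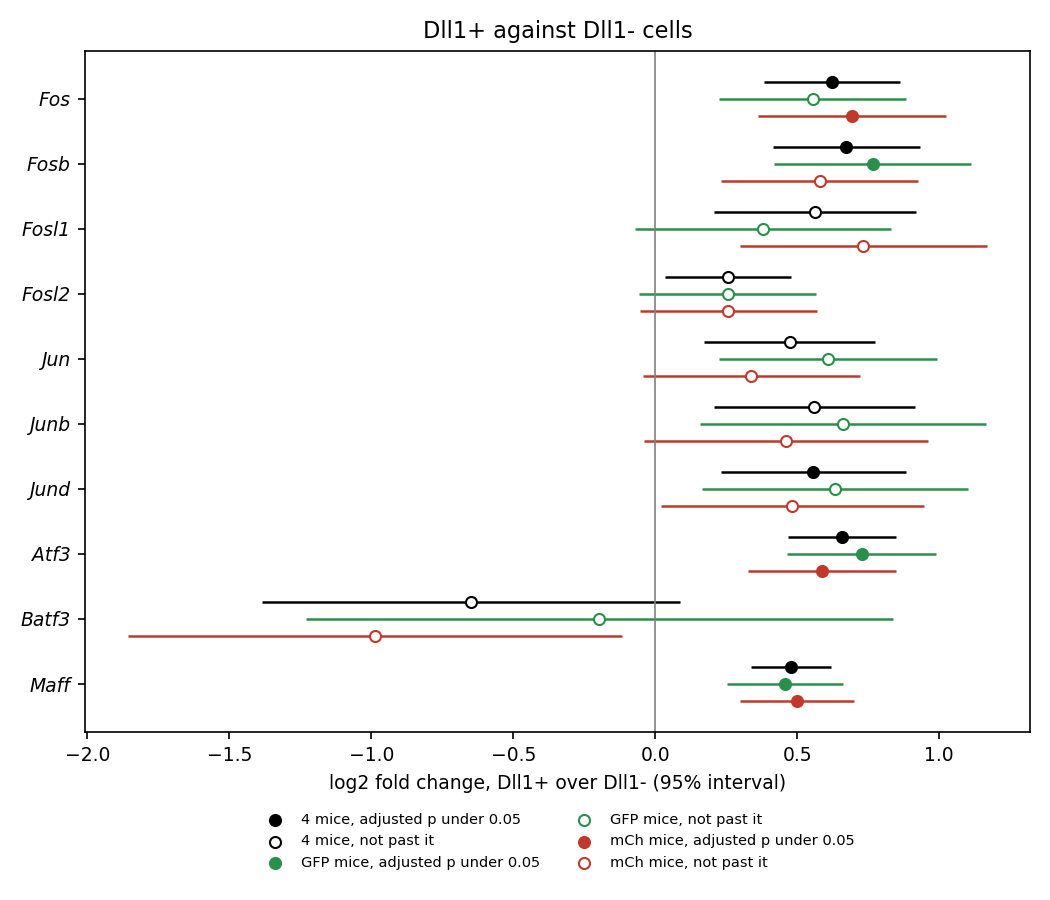
Log2 fold change of Dll1+ over Dll1- cells for the 10 AP-1 genes with 95% intervals, over 4 mice (black), in PyMT-Dll1GFP mice (green) and in PyMT-Dll1mCh mice (red). Filled points have an adjusted p under 0.05, namely 5 genes over 4 mice, 3 in PyMT-Dll1GFP and 3 in PyMT-Dll1mCh mice.

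The comparison was then made within each reporter, in 1 fit over all mice. In PyMT-Dll1GFP mice 3 of the 10 members were higher in Dll1+ cells, against 4.29% of tested genes called higher and 9.13% in either direction. They were Atf3 with a log2 fold change of 0.73 ± 0.11 (adjusted p = 0.0137), Fosb with 0.77 ± 0.14 (0.0266) and Maff with 0.46 ± 0.08 (0.0255). In PyMT-Dll1mCh mice 3 were higher too, against 5.51% of tested genes called higher and 11.8% in either direction. These were Maff with 0.50 ± 0.08 (adjusted p = 0.0199), Atf3 with 0.59 ± 0.11 (0.0250) and Fos with 0.69 ± 0.14 (0.0294). In neither reporter was a member called lower, where 4.84% and 6.25% of tested genes were. Fos in PyMT-Dll1GFP mice (0.55 ± 0.14, adjusted p = 0.0578) and Fosb in PyMT-Dll1mCh mice (0.58 ± 0.14, 0.0505) lay just outside the threshold. The 3 calls in PyMT-Dll1GFP mice became 0 without mouse 1 or without mouse 2 and 5 without mouse 3. Those in PyMT-Dll1mCh mice became 1 without mouse 1, 2 or 3 and 0 without mouse 4.

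A call in 1 reporter is no sign of a difference between them, so the difference of the effects was tested. None of the 10 members passed, 0 had an unadjusted p under 0.05, DESeq2 also called 0, and 13 of all tested genes (0.0710%) passed, split by sign (0.0655% with a signed difference above 0 and 0.00546% below it). For Maff the effect in PyMT-Dll1GFP minus that in PyMT-Dll1mCh mice was -0.04 on the log2 scale, with a 95% interval of -0.33 to 0.25. For Atf3 it was 0.14 (-0.23 to 0.51), for Fos -0.14 (-0.61 to 0.33) and for Fosb 0.19 (-0.30 to 0.67). The intervals were wider for Junb, at 0.20 (-0.51 to 0.91), and Batf3, at 0.79 (-0.56 to 2.14). With 2 mice per reporter, the intervals of Jun, Junb, Jund, Batf3 and both Fos-related antigens reached past the size of their own fold changes over 4 mice. The Fosb interval reached 0.67, about the size of its own fold change.

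The AP-1 genes were also compared between PyMT-Dll1mCh and PyMT-Dll1GFP libraries, separately in Dll1- and Dll1+ cells. The reporter cannot be told apart here from the mouse line, the single mice and any library batch. In Dll1- cells, Fos was the 1 member called, lower in PyMT-Dll1mCh by a log2 fold change of -0.52 ± 0.16 (adjusted p = 0.0437), where 15.9% of the 19843 tested genes were called lower, 19.0% higher and 34.9% in either direction. This share of members is below the background. In the same Dll1- comparison 7 of 7 fibroblast, 12 of 13 immune, 5 of 5 endothelial and 4 of 5 erythroid markers were higher in PyMT-Dll1mCh, with list medians of 3.88, 2.15, 2.42 and 3.88 on the log2 scale, and the part of such RNA in the Fos value was not tested. The call was lost without the Dll1- library of mouse 1, 2 or 3 (0 called), and without that of mouse 4 the count was 3. Batf3 was the member with the largest difference, 1.34 ± 0.44 higher in PyMT-Dll1mCh (adjusted p = 0.0533).

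In Dll1+ cells edgeR called 0 members, against 27.6% of tested genes (13.0% higher and 14.5% lower), and 3 had an unadjusted p under 0.05. These were Fos at -0.43 ± 0.16 (adjusted p = 0.0881), Jun at -0.59 ± 0.22 (0.0821) and Fosl2 at -0.72 ± 0.28 (0.0983). DESeq2 called 4 members lower, adding Fosb. The library of Dll1- cells from mouse 3, which was the deepest, held the lowest value of 8 of the 10 members. Markers higher in PyMT-Dll1mCh among Dll1+ cells were 5 of 7 fibroblast, 8 of 13 immune, 1 of 5 endothelial and 4 of 5 erythroid genes. Maff differed between the reporters by 0.18 ± 0.22 in Dll1- and 0.19 ± 0.22 in Dll1+ samples.

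**Figure D4:**
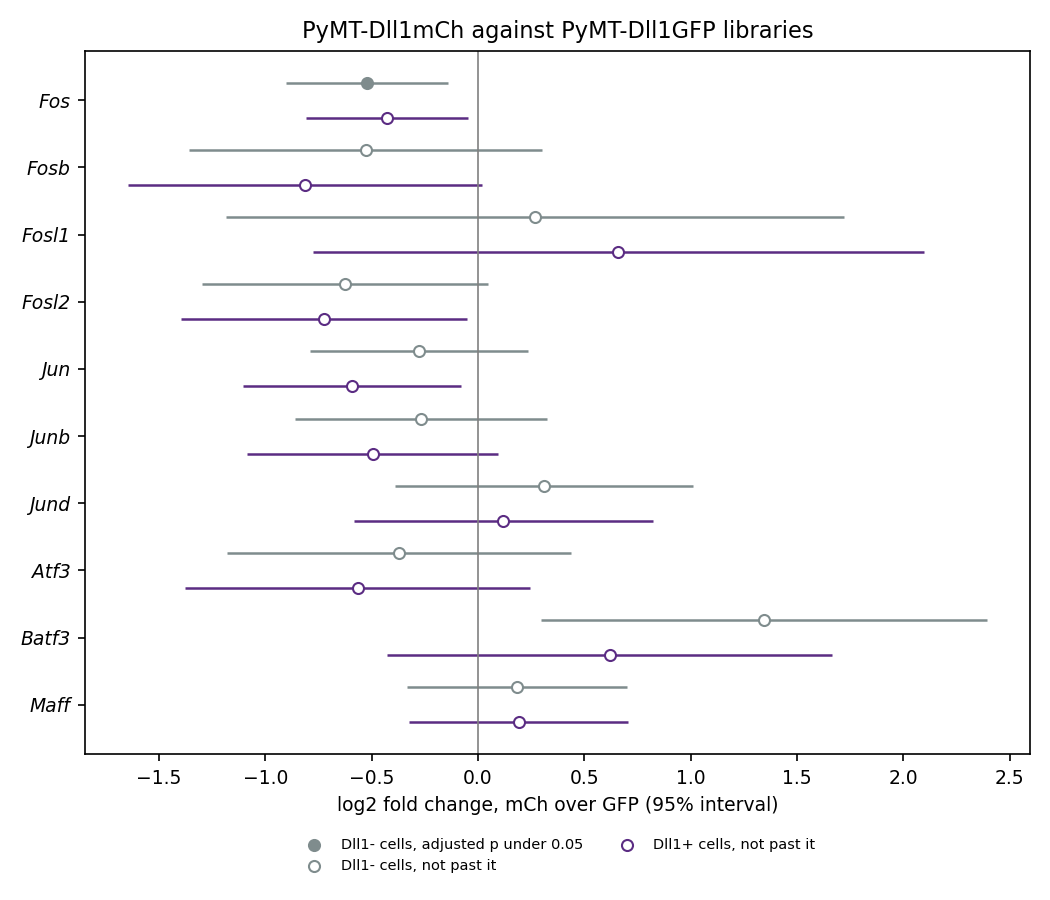
PyMT-Dll1mCh over PyMT-Dll1GFP libraries, as log2 fold change with 95% interval for the 10 AP-1 genes, grey for Dll1- and purple for Dll1+ cells. The filled point is Fos in Dll1- cells at -0.52, and the intervals of Fosl1 and Batf3 are the widest.

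Related genes were followed in lists around AP-1, whose counts over 4 mice are read against the 6.98% of all tested genes called higher and the 7.04% called lower. Among 13 related bZIP factors the test called 4 up and 0 down in Dll1+ cells over 4 mice, and the median log2 fold change was 0.11. Mafg (0.41, adjusted p = 0.0126) and Mafk (0.41, 0.0149), the other small Maf proteins, rose as Maff did, and so did Creb5 (0.52, 0.0197). Each of these genes was higher in 4 of 4 mice. Upstream of AP-1, 2 of 28 tested kinases and factors were higher and 0 lower, with a median of 0.07, which is a share near that of all tested genes. The p38 kinase gene Mapk13 rose by 0.39 (adjusted p = 0.0432) and Mef2a, a factor that acts on the Jun promoter, by 0.31 (0.0411), whereas Elk4 (0.22, 0.0597) and Mapk14 (-0.17, 0.0751) did not pass. RNA levels do not report the phosphorylation through which these kinases act.

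Genes known as AP-1 targets had calls in both directions. Of 29 tested, 4 were higher and 3 lower, beside the 6.98% and 7.04% of all tested genes, and the median was -0.05. Spp1, which codes for osteopontin, rose by 1.36 (adjusted p = 0.00534), the cytokine gene Lif by 1.08 (0.00798) and Hbegf, an EGF receptor ligand, by 0.65 (0.00710), each in 4 of 4 mice. Sprr1a, a cornified envelope protein, fell by 2.20 on the log2 scale (adjusted p = 0.0149) and was lower in 4 of 4 mice. The other calls were Vegfa at 0.50 (adjusted p = 0.0408), Areg at -1.97 (0.0362) and Mmp10 at -1.10 (0.0474).

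Immediate-early genes outside AP-1 had the highest count of these lists. Among 31 tested, 14 rose and 0 fell, and their median was 0.40 against the 0.56 of the AP-1 members. Ier3 rose by 0.77 (adjusted p = 0.00645), Trib1 by 0.65 (0.00725), Csrnp1 by 0.63 (0.0103) and Btg1 by 0.51 (0.0113), each in 4 of 4 mice. In PyMT-Dll1GFP mice 11 were higher and 1 lower, against 4.29% and 4.84% of all tested genes. In PyMT-Dll1mCh mice 16 were higher and 1 lower, against 5.51% and 6.25%. Heat shock genes, which code for chaperones and their partners, can respond to tissue handling. Their list held none of the immediate-early genes named here, which stress signals also induce. It had 1 of 13 higher and 0 lower, a share near the 6.98% of all tested genes, with a median of 0.05. That gene was Hspb1 (0.45, adjusted p = 0.0437), while Hspa1b (0.45, 0.0793), Dnaja1 (0.23, 0.0789) and Hspd1 (-0.38, 0.0805) did not pass. Summed over the 13 heat shock genes, the level was 19232 to 19896 CPM in Dll1- and 19525 to 22786 CPM in Dll1+ cells of PyMT-Dll1GFP mice. In PyMT-Dll1mCh mice it was 16398 to 16443 against 17602 to 19591 CPM. The part of tissue handling in the AP-1 result was not tested.

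**Figure D5:**
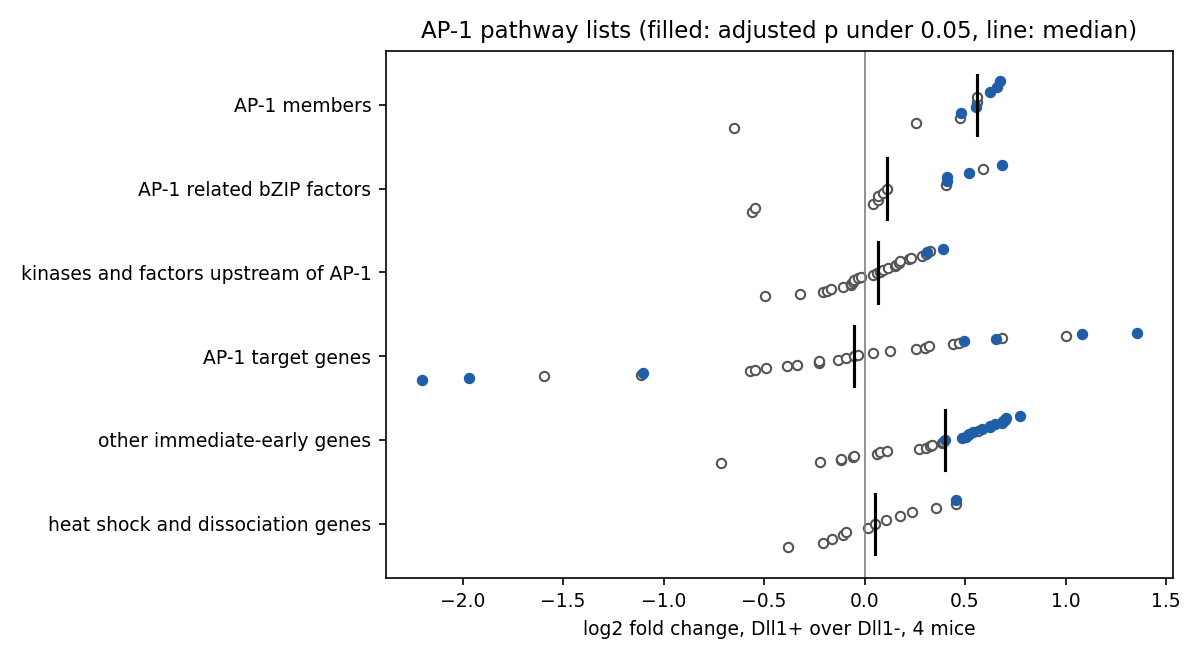
Log2 fold change of Dll1+ over Dll1- cells over 4 mice for the genes of 6 lists, 1 point per gene, filled at an adjusted p under 0.05, with the list median as a black line. The medians are 0.56 for AP-1 members, 0.40 for other immediate-early genes and between -0.05 and 0.11 for the other lists.

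Markers of other cell types were read in the same libraries. Over 4 mice, fibroblast markers had 0 of 7 and endothelial markers 0 of 5 calls, immune markers 1 of 12 higher (Cd14) and 0 lower, and erythroid markers 1 of 5 lower. The log2 fold change was above 0 for 0 fibroblast, 0 endothelial, 2 immune and 0 erythroid markers. The list medians were -1.20, -0.68, -0.58 and -0.90, against -0.00068 over all tested genes. Since these are bulk libraries, a change in RNA per cell cannot be told apart from a change in the share of a cell type. Fibroblast markers (7 genes) summed to 1082 to 1228 CPM in Dll1- and 994 to 1142 CPM in Dll1+ cells of PyMT-Dll1GFP mice, but to 7575 and 21582 CPM in Dll1- and 3011 and 3262 CPM in Dll1+ cells of PyMT-Dll1mCh mice. In PyMT-Dll1mCh mice 4 of 7 fibroblast, 8 of 12 immune, 1 of 5 endothelial and 4 of 5 erythroid markers were lower in Dll1+ cells, and 1 immune marker, Cd14, was higher. Called lower in those mice were 6.25% of all tested genes. In PyMT-Dll1GFP mice the fibroblast and endothelial markers gave 0 calls, the immune markers 1 higher (Cd14) and the erythroid markers 1 lower. Of all tested genes, 4.29% were called higher and 4.84% lower in those mice. No gene of the fibroblast, immune and endothelial lists was at 0 in both libraries of a group. The part of these cells in the AP-1 result was not tested.

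Immune markers (13 genes) summed to 271 to 313 CPM in Dll1- and 390 to 461 CPM in Dll1+ cells of PyMT-Dll1GFP mice and to 700 to 844 against 495 to 682 CPM in PyMT-Dll1mCh mice. Batf3 followed the same order of groups in PyMT-Dll1mCh mice, with 1.17 and 1.42 CPM in Dll1- and 0.443 and 0.953 CPM in Dll1+ cells. In PyMT-Dll1GFP mice the immune sum was higher in Dll1+ cells, but Cd14 was the 1 immune marker called. The median log2 fold change of the immune list was 0.077 there, so the sum does not show a general rise of these markers. Batf3 went from 0.580 to 0.418 CPM in mouse 1 and from 0.451 to 0.470 CPM in mouse 2. The part of immune RNA in the Batf3 values was not tested. Endothelial markers (5 genes) summed to 36.6 to 41.1 CPM in PyMT-Dll1GFP libraries, 120 and 279 CPM in Dll1- and 69.0 and 71.4 CPM in Dll1+ cells of PyMT-Dll1mCh mice, and erythroid markers (6 genes) to 6.03 to 14.97, 87.4 to 181 and 34.8 to 68.2 CPM. Of the 6 basal epithelial markers, 3 were higher in Dll1+ cells over 4 mice (Krt5, Trp63 and Oxtr, beside 6.98% of all tested genes), and the list's median was 1.02. In PyMT-Dll1GFP mice 1 was called higher, beside 4.29% of all tested genes, and in PyMT-Dll1mCh mice 4, beside 5.51%. Of 7 general epithelial markers, 0 were called over 4 mice and 0 in PyMT-Dll1mCh mice. In PyMT-Dll1GFP mice 1 was lower, Krt19 at -0.72 (adjusted p = 0.0195), beside 4.84% of all tested genes. The basal markers summed to 133 to 171 CPM in Dll1- and 220 to 384 CPM in Dll1+ cells of PyMT-Dll1GFP mice and 330 to 464 against 944 to 1162 CPM in PyMT-Dll1mCh mice, and the part of basal cells in the AP-1 result was not tested.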

How the data were processed

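The authors quantified reads against the GENCODE M20 transcripts of GRCm38.p6 with salmon and, through tximport, deposited 1 estimated count per gene and library, whole and not normalized. The salmon version, strand setting and any length scaling are not given in the sources used here. Of 53697 genes, 53668 were matched to a GRCm38 annotation for symbols, coordinates and exon lengths, and 0 columns were left unused. Tests used edgeR 4.0.16 under R 4.3.3 (TMM, filterByExpr, robust quasi-likelihood F test, two-sided), with Dll1 status and mouse as in the study's 2-factor model, a Dll1 effect per reporter in a second fit, and 4 groups without a block between reporters. DESeq2 1.42.0 was an alternative, and others were RLE factors, other filters, no block, fewer libraries and each mouse left out. SE is the log2 fold change over the square root of F. Log2 levels per library used a prior count of 2. Pairs came from the mouse named for each library, and deviations from the group means correlated with r = -0.05 in PyMT-Dll1GFP and 0.55 in PyMT-Dll1mCh mice. Scripts were tested on simulated data. All 10 members are named, with up to 4 genes of each other list by lowest p over 4 mice, up to 5 genes most correlated with Fos or Atf3, and Ptprc, Epcam, Krt8 and Col1a1 for the sort. Krt5, Trp63, Oxtr, Krt19, Vegfa, Areg, Mmp10, Cd14 as a marker, and Dll1 were added after values were seen. Members and lists were chosen with earlier results of these data known. Some genes that the naming rule would list are not reported here.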

Additional observations from a re-analysis of the deposited data

Results flagged for a closer look

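In 20 sets of 4 libraries (10 members, Dll1- and Dll1+), 2 had 1 library far from the other 3 by Dixon's test, which by chance picks about 1 set in 20. Atf3 in Dll1- cells was at 568 CPM in mouse 3, while the other mice lay between 1064 and 1089 CPM. Batf3 in Dll1+ cells was at 0.953 CPM in mouse 4, from 53 counts, while the other mice lay between 0.418 and 0.470 CPM.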

How the results depend on the processing

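The count of AP-1 members called between Dll1+ and Dll1- cells depended on the processing more than the fold changes did. For the alternative settings, here and above, the share of all tested genes called is not given. These counts therefore cannot be read against it. Over 4 mice it was 5, and it was 9 with DESeq2, 8 without a filter, 8 with at least 10 counts in every library, 1 without the replicate block and 1 to 5 with a mouse left out. In PyMT-Dll1GFP mice it was 3, and 7 with DESeq2, 7 without a filter, 0 without the replicate block and 0 to 5 with a mouse left out. In PyMT-Dll1mCh mice it was 3, and 5 with DESeq2, 7 without a filter, 5 with at least 10 counts, 0 without the replicate block, 0 with that reporter fitted alone and 0 to 1 with a mouse left out. The 2 libraries of a pair come from the same mouse, so the block is part of the design. RLE factors changed none of these counts. Between reporters the count in Dll1- cells was 1, and 2 with at least 10 counts, 0 with the 4 libraries alone and 0 to 3 with a library left out. In Dll1+ cells it was 0, and 4 with DESeq2, 1 without a filter, 1 with the replicate block, 1 with the 4 libraries alone and 0 with any library left out. The replicate numbers shared by the reporters belong to different mice (r = 0.12 in Dll1- and -0.06 in Dll1+ cells), so that block pairs nothing. The cause of these changes was not tested. Over 4 mice no member changed direction.

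Changes of sign occurred for values near 0 or where a mouse or library was left out, and log2 ranges over the left-out mice or libraries follow. Batf3 in PyMT-Dll1GFP mice ran from -0.47 to 0.066. For the difference of effects, Fos ran from -0.23 to 0.018, Fosl2 from -0.18 to 0.20, Junb from -0.17 to 0.57, Jund from -0.22 to 0.52 and Maff from -0.15 to 0.068. Fosl2 was also 0.028 with RLE factors, 0.028 with DESeq2, 0.026 without a filter, 0.0041 with at least 10 counts and 0.052 without the replicate block. Between reporters in Dll1- cells, Fosl1 ran from -0.55 to 0.76, Junb from -0.54 to 0.099, Jund from -0.053 to 0.60 and Maff from -0.064 to 0.36. In Dll1+ cells, Fosl1 ran from -0.38 to 1.31, Jund from -0.15 to 0.41 and Maff from -0.11 to 0.49. Over all members and alternatives, 472 values kept direction and side of the threshold, 44 lost and 43 gained the call, and 21 changed sign. With the longest transcript, the Fos share was 44.0%. Batf3, with 12 counts in its lowest library, is limited by depth.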
